A study of Bos indicus with 12 samples.

Results

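The 100 gene IDs with the highest mean normalised read count in the endometrium were described here, out of 24616 gene IDs in the count table and 18874 with at least 1 count. They were chosen by dividing the raw counts by DESeq2 median-of-ratios size factors, averaging over the 12 cows and ranking, so their level is the measure that chose them and is given as a description. The endometrial samples came from multiparous, suckled, anestrous Nelore cows, a Bos indicus beef breed, and each library was 1 cow. All 12 cows carried a progesterone (P4) insert for 8 d, received 2 mg of estradiol benzoate at its insertion and a prostaglandin F2α analogue (cloprostenol) at its removal, and were given 10 µg of buserelin, a GnRH analogue, with artificial insemination 48 h later. The 6 ECP cows also received 1 mg of estradiol cypionate, a long-acting estradiol ester, at insert removal and displayed estrus. The 6 CON cows received no ECP and did not display estrus, so the hormone and the display of estrus cannot be told apart. Biopsies were taken on D 6 after insemination. Both groups held 3 cows that proved pregnant after this insemination and 3 that did not, and the cows had been selected for similar P4.

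The endometrium is the inner lining of the uterus, and it holds luminal and glandular epithelium, stromal fibroblasts, vessels and immune cells. Estradiol before ovulation drives proliferation of this tissue, and P4 from the corpus luteum afterwards turns it to secretion, which nourishes the embryo before attachment. In most tissues a small number of transcripts holds a large share of all messenger RNA, and such transcripts usually encode parts of the ribosome, the cytoskeleton, the extracellular matrix, energy metabolism or the secreted products of the tissue. Which of these kinds the 100 gene IDs belong to was not analysed here, because the files give Ensembl gene IDs with no names. No ID matched the gene table used for names (0 matched), and the study's supplementary gene table holds 1 of the 100, ENSBTAG00000005414, with no symbol (0 of the 100 have one). Members are therefore called by gene ID and position in the list, no role is given to any of them, no sequence is printed, and the tissue label was not checked against marker genes. Gene lengths were not matched either, so the order is one of read counts and not of molecules: at an equal number of molecules a longer transcript takes more reads.

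Each library held between 8637917 and 15015055 counts, and the CON range of 10662044 to 12765968 lay inside the ECP range. A gap in the mapped share in the study's read table separates 6 libraries of lower from 6 of higher mapping, with 3 CON and 3 ECP cows in each class. Cows B1042, E0040 and E0406 (CON) and B0646, C317 and E1010 (ECP) had lower mapping, and cows 1814, E0819 and X228 (CON) and D160, E0952 and X156 (ECP) had higher mapping. All 100 members passed the filter on low and variable counts, which 14814 gene IDs passed in all.

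The members together held 17.9% ± 1.16 (SD, n = 12) of all counts. The lowest share was 16.2% in cow E0406 and the highest 20.01% in cow E0819, both CON. The CON cows held 17.8% ± 1.33 (SD, n = 6) and the ECP cows 17.9% ± 1.08 (SD, n = 6), and the CON range of 16.2 to 20.01% covered the ECP range of 16.3 to 19.1%. Cows later pregnant held 17.9% ± 1.60 (SD, n = 6) and non-pregnant cows 17.8% ± 0.621 (SD, n = 6), with the lowest and the highest share both among the pregnant. The higher mapping libraries held 18.1% ± 1.35 (SD, n = 6) and the lower mapping libraries 17.7% ± 1.01 (SD, n = 6). The shares were also set against P4. Cow X228, with 2.82 ng/mL, held 17.2%, cow B0646, with 4.73 ng/mL, held 18.5%, and the lowest and highest shares lay between them at 3.86 and 3.36 ng/mL. No test was run on these shares, since the counts chose the members.

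**Figure D1:**
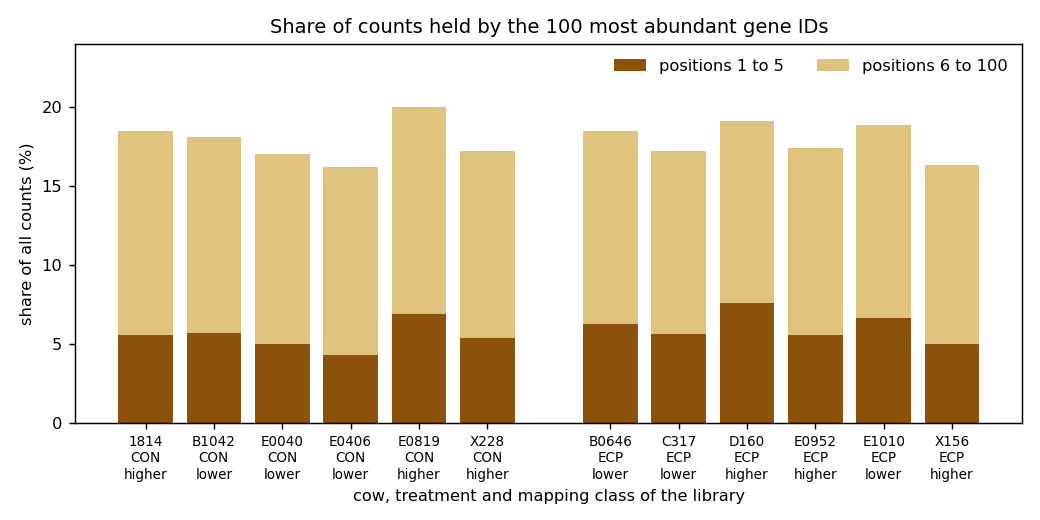
Share of all counts (%, bars from 0) held by positions 1 to 5 (dark) and positions 6 to 100 (light) in each of the 12 libraries, with the cow, treatment and mapping class below each bar. The whole bar runs from 16.2% (E0406) to 20.01% (E0819), and the dark part from 4.31% (E0406) to 7.61% (D160).

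Within the list the first 5 positions held a mean of 5.78% of all counts (n = 12), and positions 6 to 100 held 12.1%. ENSBTAG00000021466 had the highest level in all 12 cows, with a mean of 250165 normalised counts and 2.08% of all counts (range 1.52 to 2.91%). ENSBTAG00000013472 followed with 167117, ENSBTAG00000013103 with 136277, ENSBTAG00000014835 with 72517 and ENSBTAG00000003505 with 68208 normalised counts. These 5 together took from 4.31% of counts in cow E0406 to 7.61% in cow D160, a wider relative range than that of the whole list. Positions 6 to 100 took 12.4% ± 0.542 (SD, n = 6; 11.8 to 13.1%) in CON and 11.8% ± 0.395 (SD, n = 6; 11.3 to 12.3%) in ECP, so the ranges overlapped. The next positions were ENSBTAG00000011802 (38279.9), ENSBTAG00000006189 (36764), ENSBTAG00000048229 (31279), ENSBTAG00000026199 (29531) and ENSBTAG00000004258 (28395 normalised counts). Beyond the list, between 971 and 1160 gene IDs were needed in a cow to reach 50% of its counts.

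**Figure D2:**
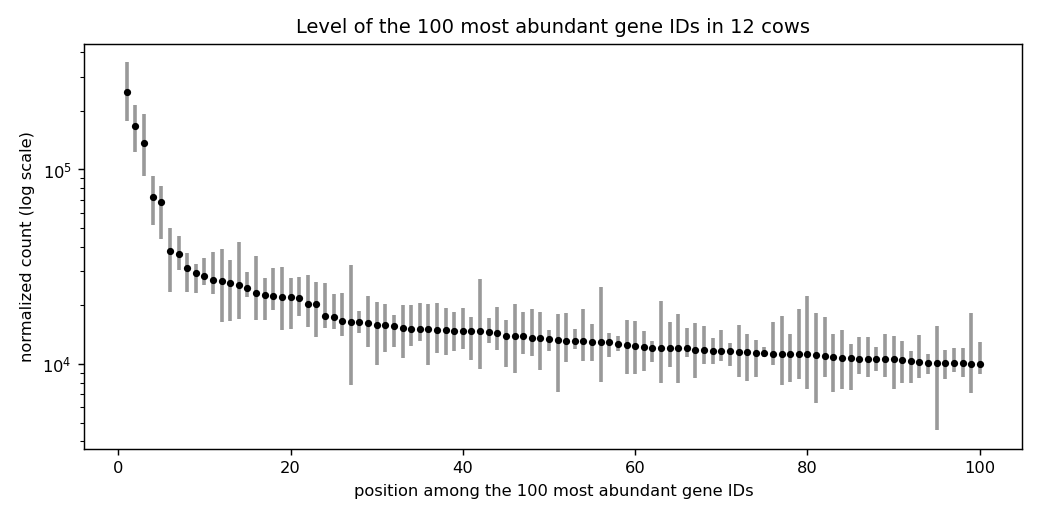
Level of the 100 members in 12 cows: the mean normalised count (point) and the range over cows (bar) on a log axis, by position in the list. The level drops from 250165 at position 1 to 38279.9 at position 6 and flattens towards the last members near 9951.

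The edge of the list was narrow. The last 4 members were ENSBTAG00000026327 (10086), ENSBTAG00000003109 (10077), ENSBTAG00000033221 (9974) and ENSBTAG00000012044 (9951 normalised counts). Just outside lay ENSBTAG00000008300 (9925) and ENSBTAG00000012683 (9879.8 normalised counts). The gap between the last member and the first gene ID outside was far smaller than the SD over cows of either, which was 1209 for ENSBTAG00000012044 and 2487 for ENSBTAG00000008300, so membership at the edge is not a difference in level.

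The order was stable at the top and loose further down. Positions 1, 2 and 3 had the same rank in all 12 cows, positions 4 and 5 changed places with each other only, and these 5 were the 5 highest in all 12 cows. Of positions 1 to 10 none ranked below 15 in any cow. In all, 57 members were among the 100 highest in all 12 cows, 41 in 6 to 11 cows and 2 in fewer than 6. The lists of the single cows together held 165 gene IDs, of which 65 were not members, and 3 of these 65 were in the top 100 of 6 or more cows. A cow's own 100 highest held between 81 members (E0040) and 90 members (B0646 and X228). Of the members, 86 never ranked below 150 and 97 never below 200, and the lowest rank of any member in any cow was 340. A range of 10 ranks or less over the 12 cows was found for 11 members.

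Spread between cows is given as the coefficient of variation (CV, the SD over 12 cows divided by the mean). The median CV of the members was 16.7% (4.30 to 42.8%), against 13.98% for the other gene IDs down to rank 1000 and 19.3% for all 14814 tested. The counting error that the read number alone gives was a median CV of 0.867% for the members and 5.64% for all tested, and 99 of the 100 members had a CV over 5 times their counting CV. Counting error was thus a small part of the spread of the members. A small counting CV follows from the high counts that chose them, and the 99 was not set against all gene IDs. The CV was under 10% in 17 members, 10 to 20% in 56, 20 to 30% in 21 and over 30% in 6.

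The most variable member was ENSBTAG00000012370, with a CV of 42.8%. It ran from 7844 normalised counts in cow E0040 (CON) to 32266 in cow X156 (ECP), and it ranked from 6 to 179. Its CON values were 7844 to 25042 and its ECP values 9584 to 32266, so the groups overlapped over most of their range. ENSBTAG00000017040 (CV 37.0%) and ENSBTAG00000017363 (CV 34.9%) were both highest in cow E0040, at 22357 and 24766 normalised counts, with all other cows at or below 16132 and 15820. At the other end, ENSBTAG00000018588 had a CV of 4.30% and its highest cow was 1.14 times its lowest. ENSBTAG00000020308 (CV 5.49%) and ENSBTAG00000015114 (CV 6.08%) were the next most even members.

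The members did not vary independently. Over the 4950 pairs the median Pearson correlation of log2 normalised counts across the 12 cows was 0.16, while 75 pairs exceeded 0.9 and 7 lay below -0.8. These correlations share libraries and scaling and describe these 12 cows only. The closest pair was ENSBTAG00000015285 with ENSBTAG00000001360 (r = 0.98), and the most opposed was ENSBTAG00000013264 with ENSBTAG00000010347 (r = -0.87). Among the first 3 positions, ENSBTAG00000013472 and ENSBTAG00000013103 went together (r = 0.92), and ENSBTAG00000021466 was most like ENSBTAG00000011802 at position 6 (r = 0.83). The first principal component of the members held 30.8% of their variance and set cow X156 (ECP) against cow E0819 (CON), and the second held 20.3%, with cow E0040 (CON) at its end.

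Grouping the members by correlation (average linkage, at a distance 1 - r of 0.5) gave 6 sets of 5 or more, drawn from these values and so given no test. The largest set held 31 gene IDs led by ENSBTAG00000048229 at position 8, with a median r of 0.78 among them. It was highest in cows E0819 and 1814, whose mean log2 level was 0.40 and 0.24 above the set's mean, and lowest in cow D160, at -0.23. Both high cows were CON with higher mapping, and its share of counts ran from 3.35 to 5.06%. A set of 12 led by ENSBTAG00000021466 held positions 1 to 6 and its share ran from 5.17% in cow E0406 to 9.11% in cow D160. A set of 13 was led by ENSBTAG00000006189, and in it cow X156 stood lowest at -0.42. Of the 3 smaller sets, the 5 IDs led by ENSBTAG00000010793 were highest in cow E0040, which stood 0.86 above the mean. They were lowest in cow X228, at -0.39. In bulk tissue, fewer cells of a type and less RNA per cell cannot be told apart, and this holds for every difference given here.

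**Figure D3:**
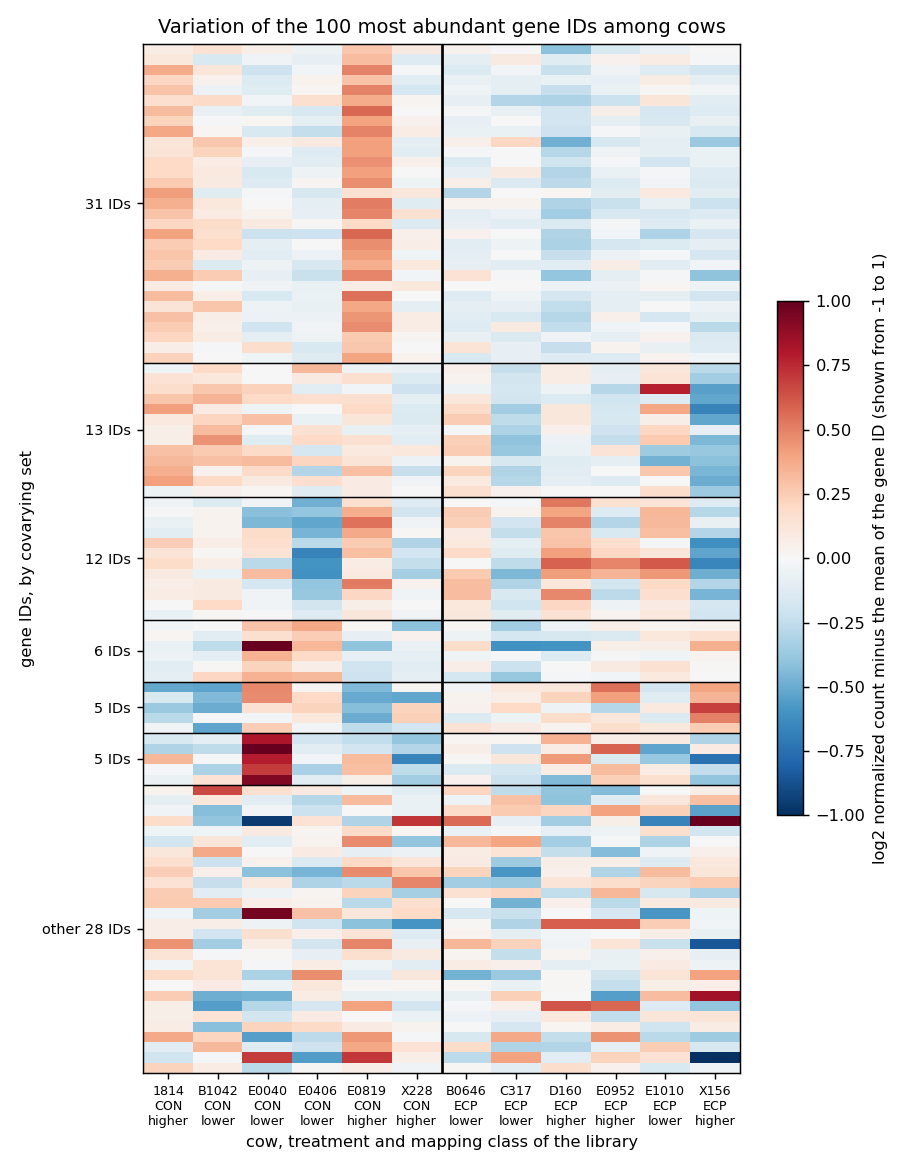
Log2 normalised count of each member minus its mean over the 12 cows (colour, shown from -1 to 1), with gene IDs in rows by covarying set and cows in columns, CON left and ECP right of the line. The 31 IDs of the largest set are mostly red in cows E0819 and 1814 and mostly pale or blue in the ECP cows, and the 5 IDs of the last set are red in cow E0040.

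The first comparison asked whether ECP with estrus before ovulation left the abundant transcripts different on D 6. No member passed the threshold between ECP and CON: 0 of 100 reached an adjusted p of 0.10 in edgeR's quasi-likelihood test with Benjamini-Hochberg adjustment, and the background was 0% of the 14814 gene IDs tested. The lowest adjusted p of a member was 0.461. By DESeq2, 1 member passed, ENSBTAG00000005414, where 0.628% of all gene IDs did. With limma voom, 0 members and 0 of all gene IDs passed. At an unadjusted p under 0.05, 17 members differed (8.74% of all gene IDs tested), 15 of them lower in ECP (3.93%) and 2 higher (4.81%). In sign, 72 members had a log2 difference below 0, against 49.5% of all gene IDs, and the median was -0.11, against 0.00 for all. Every member lay within 0.5 of 0 on the log2 scale, from -0.43 to 0.40, against 91.2% of all gene IDs, and 64 lay within 0.2, against 65.2% of all. The median absolute log2 difference was 0.16 for the members and 0.13 for all gene IDs. In no member did the groups separate without overlap, against 0.608% of all.

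**Figure D4:**
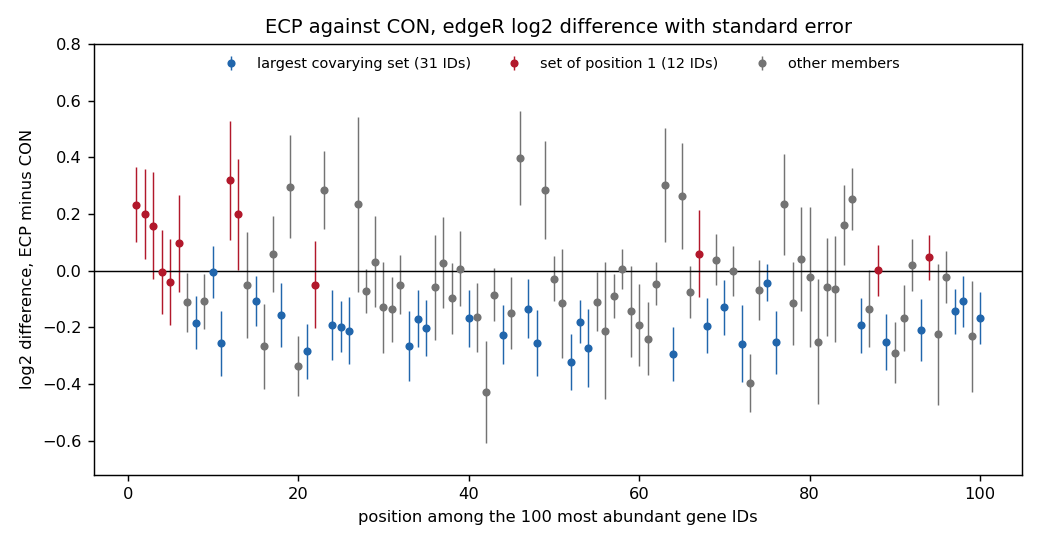
edgeR log2 difference ECP minus CON (points) with its standard error (bars) for each member by position, with the largest covarying set of 31 IDs in blue and the set of position 1 in red. All points lie between -0.43 and 0.40, and the 31 blue points all lie below 0.

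ENSBTAG00000005414 at position 73 had the lowest p among the members lower in ECP. Its CON cows ran from 10899 over a median of 13517 to 14242 normalised counts, and its ECP cows from 8167 over 10283 to 11623. Only the lowest CON cow, X228, lay within the ECP range. The log2 difference was -0.40 (SE 0.10), with an adjusted p of 0.461 in edgeR and 0.047 in DESeq2, and it was -0.45 in the lower and -0.35 in the higher mapping libraries. This gene ID stands in the study's own table of genes, which was chosen on these same samples and is no independent evidence.

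ENSBTAG00000000622 at position 52 ran from 12301 over a median of 14137 to 18357 normalised counts in CON and from 10249 over 11796 to 12543 in ECP. The ranges met only between the highest ECP and the lowest CON cows. Its log2 difference was -0.32 (SE 0.10, edgeR adjusted p = 0.481), with -0.11 in the lower and -0.54 in the higher mapping libraries. In the other direction, ENSBTAG00000012849 ran from 8965 over 12406 to 14139.9 in CON and from 10937 over 14810 to 20437 in ECP. The groups overlapped, and the log2 difference was 0.40 (SE 0.17, edgeR adjusted p = 0.531), with 0.06 in the lower and 0.70 in the higher mapping libraries. ENSBTAG00000020873 ran from 7348 over 9794 to 12578 in CON and from 10832 over 11539 to 12616 in ECP, with a log2 difference of 0.25 (SE 0.11, edgeR adjusted p = 0.547) that was 0.18 in the lower and 0.31 in the higher mapping libraries. Its ECP values were tight and lay inside or just above the upper part of the CON range.

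The first 3 positions had higher means in ECP, none past the test. ENSBTAG00000021466 ran from 177212 over a median of 231753 to 276462 normalised counts in CON and from 226263 over 258549 to 355177 in ECP. The highest value was that of cow D160, and the other 5 ECP cows lay within the CON range. Its log2 difference was 0.23 (SE 0.13, edgeR adjusted p = 0.611), and those of ENSBTAG00000013472 and ENSBTAG00000013103 were 0.20 (SE 0.16) and 0.16 (SE 0.19). For ENSBTAG00000013472 the difference was 0.46 in the lower and -0.06 in the higher mapping libraries.

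Of the 15 members lower in ECP at an unadjusted p under 0.05, 11 belonged to the largest covarying set. All 31 members of that set had a log2 difference below 0, with a median of -0.19. These 31 move together across cows, so they are not 31 separate observations. Their median was -0.01 in the lower mapping libraries and -0.38 in the higher mapping libraries. In the set of position 1, 9 of 12 lay above 0, with medians of 0.22 in the lower and -0.04 in the higher mapping libraries. In the set of 13, 12 lay below 0 and the median was -0.13 (-0.12 in the lower and -0.27 in the higher mapping libraries). The set of 5 led by ENSBTAG00000006029 went the other way, with all 5 above 0, 1 of them at an unadjusted p under 0.05, and a median of 0.25 (-0.07 in the lower and 0.41 in the higher mapping libraries). The set of 6 led by ENSBTAG00000016648 had 5 below 0 (median -0.09). Its medians were -0.26 in the lower and 0.12 in the higher mapping libraries. The set of 5 led by ENSBTAG00000010793 had 4 below 0 (median -0.06), with medians of -0.36 in the lower and 0.04 in the higher.

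The number of members lower in ECP at an unadjusted p under 0.05 moved with the libraries used. It was 2 of 100 in the lower mapping libraries alone (3.06% of all gene IDs) and 28 of 100 in the higher mapping libraries alone (6.84%). Without cows 1814 and E0819, the 2 CON cows in which the largest set was highest, it was 5 (3.32%) and the median log2 difference was -0.05. Both cows were chosen for those high values, which by itself lowers the count, so this fit is a description and no test. Leaving out 1 cow at a time gave 7 to 23, while the share of all gene IDs lower in ECP at that p moved from 3.01% without D160 to 5.14% without E0040. The count was 7 without cow 1814 (3.47% of all), E0819 (3.73%) or D160 (3.01%), 8 without E1010 (3.96%), 9 without X156 (4.19%) and 23 without E0040 (5.14%). The number of members below 0 was between 70 and 77 in the fits without 1 cow (48.8 to 50.3% of all gene IDs) and 62 without cows 1814 and E0819 (48.8%). It was 57 in the lower (48.5%) and 77 in the higher mapping libraries (51.0%). At the adjusted threshold, edgeR called 0 members in either class alone, where it called 0 of 14814 gene IDs in the lower and 55 of 14814 in the higher mapping libraries.

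The test of whether the ECP difference was unequal in the mapping classes called 0 of 100 members, against 0% of 14814 gene IDs (edgeR interaction term, Benjamini-Hochberg, lowest adjusted p of a member 0.402). DESeq2 also called 0 members, against 1.17% of all gene IDs, but its lowest adjusted p of a member, 0.101, was just over the threshold. At an unadjusted p under 0.05, 16 members differed between classes, against 9.71% of all gene IDs. The interaction was above 0 in 71 members, against 48.9% of all, which means a difference less negative or more positive in the lower mapping libraries. In sign, 45 members were lower in ECP in both classes, 11 higher in both, and 44 had unequal directions. These directions were not counted over all gene IDs, so the counts cannot be read as particular to the members.

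ENSBTAG00000016224 at position 26 had an ECP difference of 0.05 in the lower and -0.46 in the higher mapping libraries, an interaction of 0.50 (SE 0.17, edgeR adjusted p = 0.425). Its higher mapping libraries ran from 14332 to 23268 normalised counts, with cows E0819 and 1814 at the top, and its lower mapping libraries only from 14009 to 16808. ENSBTAG00000005315 had 0.05 and -0.47 (interaction 0.50, SE 0.18). In the other direction, ENSBTAG00000039161 had -0.12 in the lower and 0.70 in the higher mapping libraries (interaction -0.84, SE 0.28, edgeR adjusted p = 0.402). ENSBTAG00000013315 had -0.43 and 0.11 (interaction -0.55, SE 0.17). Each class holds 3 cows a group, so these values rest on few animals.

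**Figure D5:**
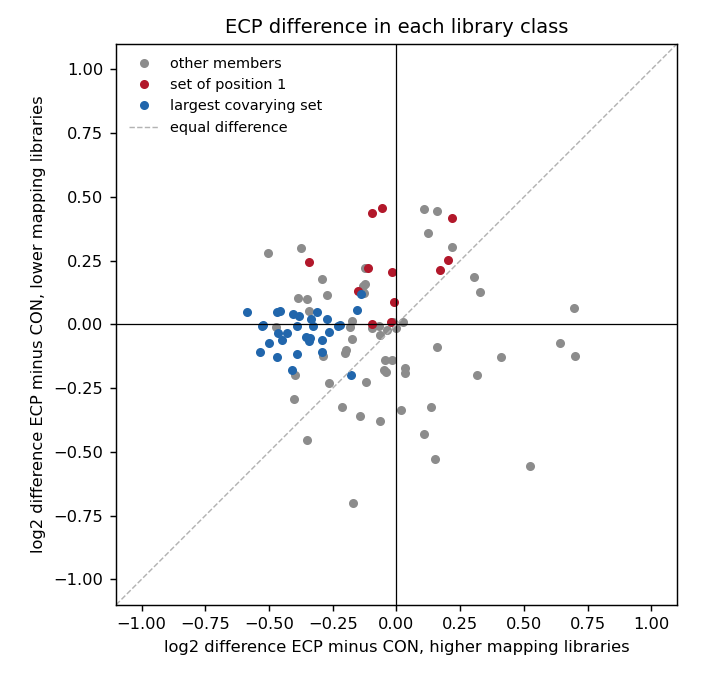
Log2 difference ECP minus CON of each member in the lower mapping libraries (vertical axis) against the higher mapping libraries (horizontal axis), both unitless log2 values, with the dashed line at equal difference. The largest covarying set (blue) lies to the left of 0 with a median of -0.38 in the higher and -0.01 in the lower mapping libraries. The set of position 1 (red) lies above 0 on the vertical axis, from 0.002 to 0.46.

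Later pregnancy was compared in a model with the treatment. No member passed the threshold (0 of 100, background 0% of 14814 gene IDs, edgeR, lowest adjusted p of a member 0.9997). DESeq2 called 0 members, against 0% of all gene IDs. At an unadjusted p under 0.05, 1 member differed, against 3.25% of all gene IDs, and it was lower in pregnant cows (1.28% lower and 1.97% higher among all). Above 0, meaning higher in later pregnant cows, lay 52 members, against 51.8% of all, and the median absolute log2 difference was 0.07, against 0.10 for all. The member of lowest p was ENSBTAG00000013066 at position 83, which ran from 9414 over a median of 12944 to 14351.5 normalised counts in non-pregnant cows and from 7191 over 8769.9 to 14259 in pregnant cows. Of the pregnant cows 5 lay below every non-pregnant cow, while cow E0819 lay near the highest non-pregnant cow, and the log2 difference was -0.40 (SE 0.16). ENSBTAG00000019915 followed at -0.23 (SE 0.12). The highest in the other direction by p were ENSBTAG00000016648 at 0.23 (SE 0.11) and ENSBTAG00000013315 at 0.19 (SE 0.11). In no member did the groups separate without overlap, against 0.0473% of all gene IDs.

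Circulating P4 at biopsy ran from 2.82 to 4.73 ng/mL, and a slope per ng/mL was fitted with the treatment in the model. No member had a slope past the threshold (0 of 100, background 0% of 14814 gene IDs, edgeR, lowest adjusted p of a member 0.972), and DESeq2 called 0 members, against 0.0743% of all gene IDs. At an unadjusted p under 0.05 there were 6 members, against 4.69% of all: 5 rising with P4 (2.24% of all) and 1 falling (2.45%). In sign, 66 slopes lay above 0, against 51.2% of all. ENSBTAG00000004553 had a log2 slope of 0.34 per ng/mL (SE 0.12). Its 3 cows of lowest P4 held 9195 to 11299 normalised counts while its 3 cows of highest P4 held 11646 to 14569. Its lowest and highest values lay at nearly equal P4, 8881 in cow X156 (3.77 ng/mL) and 16603 in cow B1042 (3.79 ng/mL). ENSBTAG00000013468 had a slope of 0.29 (SE 0.11). In the 10 cows left without X228 and B0646, these 2 slopes were 0.34 (SE 0.20) and 0.22 (SE 0.18). ENSBTAG00000013066, the member of lowest p for pregnancy, had the lowest p among the falling slopes, -0.39 (SE 0.17). Its slope was -0.84 (SE 0.21) in the 10 cows left without X228 and B0646, the cows at the ends of the P4 range. In that edgeR fit 0 members and 0 of all gene IDs passed the threshold (lowest adjusted p of a member 0.831). Both cows left out were non-pregnant, and the model had no pregnancy term. Among the 10 cows left, P4 ran from 3.05 to 3.79 ng/mL in non-pregnant and from 3.36 to 4.09 ng/mL in pregnant cows. These ranges overlap in part, no fit held both P4 and later pregnancy, and which of them goes with that slope was not tested. The slope of ENSBTAG00000001246 was -0.22 (SE 0.16) in all 12 cows and 0.22 (SE 0.21) in those 10, so its direction rests on X228 and B0646. The cows had been chosen for similar P4, which keeps the range narrow.

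The libraries of lower and higher mapping were compared with the treatment in the model. No member passed the threshold (0 of 100, against 0.00675% of 14814 gene IDs, edgeR, lowest adjusted p of a member 0.579), and DESeq2 called 0 members, against 0.675% of all. The lowest adjusted p of a member in DESeq2, 0.106, was just over the threshold. At an unadjusted p under 0.05 there were 4 members, against 7.47% of all gene IDs, 1 higher (3.73% of all) and 3 lower (3.75%) in the lower mapping libraries. The classes separated without overlap in 1 member, against 0.614% of all gene IDs. This was ENSBTAG00000020308 at position 58, among the most even members, with 12560.1 to 13943 normalised counts in the lower and 11732 to 12476 in the higher mapping libraries. Its log2 difference was 0.13 (SE 0.06, edgeR adjusted p = 0.673). ENSBTAG00000015388 had the lowest p, with 10402 to 11189.9 in the lower and 10727 to 14913 in the higher mapping libraries, a log2 difference of -0.22 (SE 0.08, edgeR adjusted p = 0.579). ENSBTAG00000021499 was at -0.23 (SE 0.09) and ENSBTAG00000013162 at 0.30 (SE 0.13), the latter with 1 CON cow, B1042, at 35711 normalised counts against 21039.6 to 25466 in the other CON cows.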

How the data were processed

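RNA from 12 endometrial biopsies, 1 cow each, was sequenced by the authors from TruSeq libraries on a HiScanSQ, trimmed with SeqyClean and mapped to the masked bovine genome UMD 3.1. Versions credited to the submitters' notes on processing are HTSeq 0.5.4p2 for counting, Bowtie2 2.1.0, DESeq 1.12.1, SAMtools 0.1.18 and CASAVA 1.8.2, while the methods give DESeq2 for the test. The deposited values are raw counts per gene ID of uniquely mapped reads, so members with near-identical copies can be undercounted, and their lengths, copies and overlaps were not analysed here.

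Counts were divided by DESeq2 1.42.0 size factors and ranked by mean to choose the 100 members. One gene ID is not reported here. Comparisons were fitted on all gene IDs with a mean normalised count above 5 and above the SD (14814, of 15161 above 5) in edgeR 4.0.16 with TMM scaling and the quasi-likelihood test in R 4.3.3, with Benjamini-Hochberg adjustment over all of them and the study's threshold of 0.10. ECP against CON had no covariate, while pregnancy, P4 and mapping class had treatment as covariate. The fits were tested on simulated data. DESeq2 and limma 3.58.1 (voom), other scalings, filters and covariates, and leaving out each cow were the alternatives. Figures were drawn with Python 3.11.15 and matplotlib 3.10.9. Members and lists were chosen with earlier results of these data known. Named were the first 10 positions, the edge of the list, the 3 highest and 3 lowest CVs, the member in the study's gene table and, for each comparison, the 2 members of lowest p in each direction. Gene IDs named as sets, pairs or single cows' values were chosen after their values were seen. Lists by gene function and cell type markers could not be applied, since no symbols were matched.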

Additional observations from a re-analysis of the deposited data

Results flagged for a closer look

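Each named member and the members' summed share of counts were checked in each group of 6 cows, 76 checks in all. In 6 of them 1 cow lay far from the other 5 (a gap over the range above Dixon's critical value). For independent checks fixed in advance, chance gives about 1 in 20. Some members were named for their spread or p in these same values, and members covary, so that rate does not apply here. ENSBTAG00000021466, the member at position 1, stood at 355177 normalised counts in ECP cow D160, against 226263 to 273850 in the other ECP cows. ENSBTAG00000000622 was low in the same cow, at 10249 against 11697 to 12543. CON cow E0040 was high in ENSBTAG00000033221, at 18344 against 7593 to 10644 in the other CON cows, and in ENSBTAG00000017040, at 22357 against 8679 to 9952. ENSBTAG00000016648 was low in ECP cow C317, at 11557 against 14180.1 to 15432. ENSBTAG00000013162 was high in CON cow B1042, at 35711 against 21039.6 to 25466. Cows E0040 and D160 account for 4 of the 6, but both gene IDs flagged in E0040 belong to the same covarying set. What sets these cows apart was not tested.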

How the results depend on the processing

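No member passed the threshold for pregnancy, P4, mapping class or its interaction with treatment under any alternative run, and for ECP against CON 1 passed with DESeq2 (0.628% of all gene IDs) and 0 in every other setting, including each cow left out in turn (0 to 0). In those other settings 0 of all gene IDs tested passed, except in the higher mapping libraries alone, where 55 of 14814 did. The number of members lower in ECP at an unadjusted p under 0.05 was 15 (3.93% of all gene IDs), and it became 2 in the lower (3.06%) and 28 in the higher mapping libraries alone (6.84%) and 5 without cows 1814 and E0819 (3.32%), all 3 chosen after seeing the data, and 7 to 23 with each cow left out (3.01 to 5.14%). The cause was not tested. The log2 difference of ENSBTAG00000020308 in ECP, 0.0062, became -0.00048 with DESeq2 size factors, and both are near 0. The mean share of counts was 16.1% rather than 17.9% when the highest gene ID was left out of both the members' counts and the total. Other scalings kept the median log2 difference of the members between -0.12 and -0.11. Ranking with each cow left out kept 96 to 100 of the members. In all, 253 values stayed on the same side or within their spread. No paired analysis was possible because the replicate numbers follow accession order and pair no cows. The counting CV of the members was at most 1.00%.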
